A study of Mus musculus with 6 samples.

Results

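Adipoq, Cfd, Plin1, Cidec, Cidea, Ucp1, Car3, Retn, Slc36a2 and Thrsp, 10 genes known from fat cells, were followed in RNA sequencing of 6 mouse hearts. They were picked by symbol, and all 10 have a row among the 24315 rows of the deposited expression table. They were named with their levels in these libraries in view, because some had looked high in a single control heart and others present in each heart. Their levels and genotype differences are therefore a description, and none of the p-values below is independent evidence. Values are FPKM, fragments scaled by transcript length and library size, so that levels of different genes can be set side by side.

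The hearts came from male mice aged 6 weeks on a C57Bl6J background, and each of the 6 animals carried floxed alleles of cyclin C (Ccnc), the cyclin of the Mediator kinase module. In 3 mice (cyclin C fl/fl; aMHC cre, called cKO) a Cre transgene under the alpha myosin heavy chain promoter, active in cardiomyocytes, could delete the gene. The other 3 (fl/fl) carried no Cre, so deletion and Cre cannot be told apart. Other cells of the heart keep the gene. With replicates 1 to 3 given in order here and below, Ccnc was 8.48, 7.6 and 10.8 FPKM in the fl/fl hearts against 5.81, 5.7 and 4.53 FPKM in the cKO hearts (limma adjusted p = 0.144). FPKM summed to between 589196 and 768960 per library; the number of reads is not given. Cardiomyocyte genes were abundant in every library, with the myosin gene Myh6 between 1866 and 3996 FPKM.

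Adipocytes store triglyceride in lipid droplets coated with perilipin and CIDE proteins, and they secrete adiponectin, resistin and the complement protease adipsin. Brown adipocytes also burn fat through the mitochondrial uncoupling protein UCP1. Fat lies on the surface of the heart and great vessels and, in the mouse chest, beside the thymus, while cardiomyocytes themselves take up and oxidize fatty acids and share part of the lipid handling genes.

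Most thymocyte markers and part of the mesothelium markers set fl/fl 1 apart. Of 16 thymocyte markers, 14 had an FPKM there of at least 3 times the highest other library, and their summed level was 165 FPKM against 5.68 to 10.9 FPKM in the remaining hearts. The recombinase gene Rag1 stood at 14.6 FPKM in fl/fl 1, while no other heart exceeded 0.519 FPKM, and the kinase gene Lck at 18.3 FPKM with at most 1.2 FPKM in the others. Of 8 mesothelium markers 4 passed that limit: the keratins Krt8, Krt18 and Krt19, and Upk1b. The 8 summed to 51.2 FPKM in fl/fl 1 compared with 5.25 to 12.3 FPKM in the rest. Msln, Upk3b and Lrrn4 were highest in fl/fl 1 but below the limit (ratios of 1.68, 2.99 and 2.59), and Wt1 was highest in cKO 3. Cardiomyocyte genes listed as ventricular summed to 75374 FPKM in fl/fl 1, below fl/fl 2 and 3 (101712 and 89001 FPKM) and above each cKO heart (51485 to 57430 FPKM). The part of these tissues in the level of any gene in fl/fl 1 was not tested. In whole tissue, fewer cells of a type and less RNA per cell cannot be told apart.

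Promoters of 4 of the genes are shown so that expression can be read beside sequence: 3 of genes high in fl/fl 1, and Thrsp, present in each heart. RefSeq windows on GRCm38.p6, from 250 bases before to 50 after a start site, were used for 7 of the 10 genes. Car3, Slc36a2 and Cidea are not among them. Capitals mark matches on either strand to 4 short motifs, named after the sequences.
Adipoq promoter, chr16:23146286-23146585, plus strand: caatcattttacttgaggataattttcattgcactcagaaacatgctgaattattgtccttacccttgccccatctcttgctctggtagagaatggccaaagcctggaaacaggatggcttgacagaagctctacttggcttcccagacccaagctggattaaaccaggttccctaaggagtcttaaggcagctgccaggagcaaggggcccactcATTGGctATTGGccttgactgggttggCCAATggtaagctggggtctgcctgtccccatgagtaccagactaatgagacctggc
Cfd promoter, chr10:79890603-79890902, plus strand: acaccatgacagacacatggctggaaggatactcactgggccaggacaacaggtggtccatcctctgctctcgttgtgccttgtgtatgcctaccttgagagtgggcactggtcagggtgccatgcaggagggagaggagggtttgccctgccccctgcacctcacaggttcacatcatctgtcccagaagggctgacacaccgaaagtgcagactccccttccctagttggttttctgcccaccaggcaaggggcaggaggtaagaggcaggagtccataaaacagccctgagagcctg
Ucp1 promoter, chr8:83290098-83290397, plus strand: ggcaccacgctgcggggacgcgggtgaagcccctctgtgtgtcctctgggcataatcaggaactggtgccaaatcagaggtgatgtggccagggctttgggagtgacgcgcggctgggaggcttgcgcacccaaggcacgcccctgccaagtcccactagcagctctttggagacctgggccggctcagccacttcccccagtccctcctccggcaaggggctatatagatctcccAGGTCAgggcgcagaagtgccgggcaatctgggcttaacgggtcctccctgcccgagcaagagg
Thrsp promoter, chr7:97417501-97417800, minus strand: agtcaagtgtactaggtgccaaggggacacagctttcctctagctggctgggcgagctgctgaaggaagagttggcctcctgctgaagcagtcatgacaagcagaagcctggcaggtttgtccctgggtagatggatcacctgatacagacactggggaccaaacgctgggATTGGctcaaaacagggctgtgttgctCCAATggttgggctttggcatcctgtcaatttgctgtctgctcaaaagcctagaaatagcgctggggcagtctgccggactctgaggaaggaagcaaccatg
The CCAAT box (letters CCAAT) occurred 3 times in the Adipoq window and 2 times in that of Thrsp. A nuclear receptor element, searched as AGGTCA, occurred 1 time in the Ucp1 window. The TATA box, searched as TATAAA, and the E-box, searched as CACGTG, occurred in none. No matches overlapped, and the windows of Cfd, Plin1, Retn and Cidec held no match. Over 32851 RefSeq windows of this length the CCAAT box was found in 37.4%, the nuclear receptor element in 16.3%, the TATA box in 13.6% and the E-box in 7.15%. The matches describe letters and say nothing of binding.

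Levels separated the genes into those that stood high in fl/fl 1 and those that did not. In 7 of the 10 (Adipoq, Cfd, Plin1, Cidec, Ucp1, Car3 and Retn) fl/fl 1 was at least 3 times the highest other library, and 5 of the 10 (Car3, Cfd, Cidea, Slc36a2 and Thrsp) reached 1 FPKM in each of the 6 libraries. Car3 and Cfd belonged to both classes. Among 12103 genes with a mean of at least 1 FPKM, 0.595% passed the 3-fold limit in fl/fl 1, and 93.3% reached 1 FPKM in each library. The same limit was passed by 0.0165% of genes in each of fl/fl 2, fl/fl 3, cKO 1 and cKO 2 and by 0.00826% in cKO 3. The gene just inside the limit was Retn, with a ratio of 9.21, and the one just outside was Slc36a2, with a ratio of 1.25. Plin1, Cidec and Ucp1 had a mean under 1 FPKM once fl/fl 1 was set aside, so they entered the tests through that library.

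**Figure D1:**
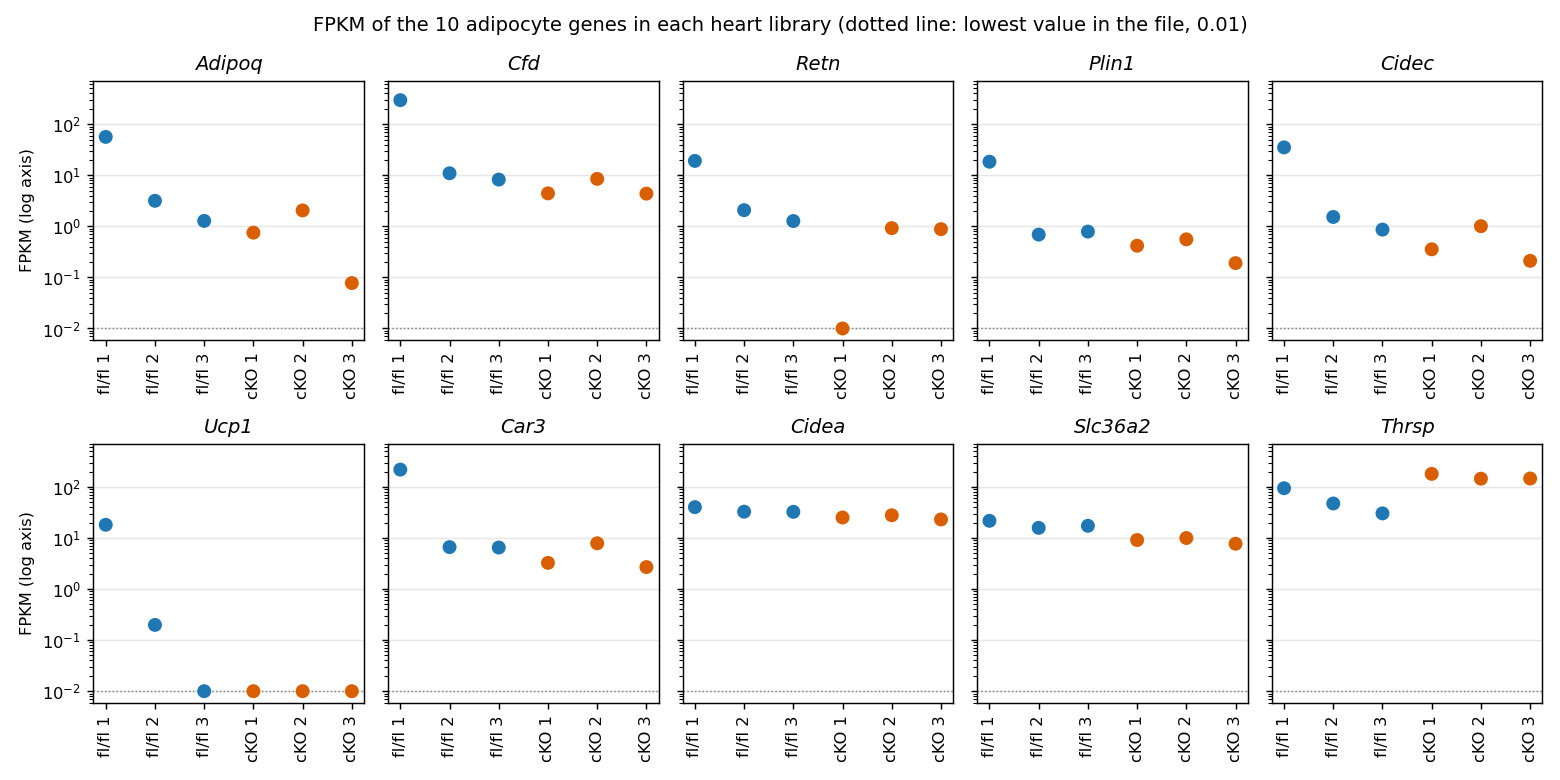
FPKM on a log axis for each of the 10 genes in the 6 heart libraries, fl/fl in blue and cKO in orange; the dotted line marks 0.01, the lowest value in the file. Adipoq, Cfd, Retn, Plin1, Cidec, Ucp1 and Car3 are far higher in fl/fl 1, whereas Cidea, Slc36a2 and Thrsp are not.

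Among the secreted proteins, Cfd, which encodes adipsin (complement factor D), was 295, 11 and 8.24 FPKM in the fl/fl hearts against 4.42, 8.5 and 4.37 FPKM in the cKO hearts. Adipoq, the hormone adiponectin, was 56.4, 3.16 and 1.28 FPKM in the fl/fl hearts against 0.752, 2.05 and 0.0776 FPKM in the cKO hearts. Retn, the hormone resistin, was 19.1, 2.07 and 1.27 FPKM in the fl/fl hearts against 0.01, 0.923 and 0.882 FPKM in the cKO hearts. For each of these 3 genes fl/fl 1 was far above the other hearts. With fl/fl 1 set aside, the genotypes overlapped for Cfd and Adipoq, where cKO 2 lay above fl/fl 3, and did not overlap for Retn.

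The lipid droplet genes Plin1 and Cidec had the same outlying library. Plin1, the perilipin that guards the droplet of fat cells against lipases, was 18.4, 0.689 and 0.789 FPKM in the fl/fl hearts against 0.417, 0.557 and 0.191 FPKM in the cKO hearts. Cidec, a CIDE protein that promotes growth of droplets, was 35.1, 1.53 and 0.863 FPKM in the fl/fl hearts against 0.355, 1.01 and 0.211 FPKM in the cKO hearts. Both were below 2 FPKM in the other 5 hearts. Other droplet proteins were abundant in each heart, such as Plin5, the perilipin of oxidative tissues, at 62.4 to 125 FPKM over the 6 libraries and Plin3 at 59.5 to 100.1 FPKM. Of 14 other lipid droplet genes 0 passed the 3-fold limit in fl/fl 1.

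Ucp1, the proton carrier of brown fat, stood at 18.1 FPKM in fl/fl 1, with 0.198 FPKM for fl/fl 2, and it was listed at 0.01 FPKM in the other 4 libraries. Of 19 other brown adipocyte genes 3 passed the 3-fold limit in fl/fl 1, each at a low level: Otop1 at 0.626 FPKM, Slc27a2 at 0.521 FPKM and Lhx8 at 0.095 FPKM. Zic1, a transcription factor of brown fat, was listed at 0.01 FPKM in each library. The mitochondrial genes Cox8b and Cox7a1, which brown fat shares with heart, were highest in fl/fl 2, at 3179.7 and 5879.6 FPKM. Ucp2, an uncoupling protein of many tissues, was 95.8, 89.1 and 45.1 FPKM in the fl/fl hearts against 85.7, 64 and 60.5 FPKM in the cKO hearts, and Ucp3, that of muscle, 32.3, 43.1 and 38.3 FPKM in the fl/fl hearts against 59.6, 55 and 74.8 FPKM in the cKO hearts. Neither was set apart in fl/fl 1.

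Car3, carbonic anhydrase 3, an enzyme abundant in white fat and in slow skeletal muscle, was 218, 6.62 and 6.5 FPKM in the fl/fl hearts against 3.26, 7.86 and 2.69 FPKM in the cKO hearts. The 5 hearts other than fl/fl 1 overlapped between the genotypes. Skeletal muscle markers summed to 27.1 FPKM in fl/fl 1 compared with 26 to 58.3 FPKM in the others, and the fast myosins Myh1, Myh2 and Myh4 were at most 0.0518 FPKM. Of 15 other carbonic anhydrases Car14 was the most abundant, at 105 to 179 FPKM, followed by Car4 at 15 to 29.2 FPKM. Over 6 libraries the genes whose log2(FPKM + 1) ran most like that of Car3 were Ccl25 (Pearson r = 0.996), Cfd (0.996) and Cidec (0.995), a likeness in which fl/fl 1 lies far from the other 5 points. Ccl25, a chemokine known from thymus and gut, stood at 18.9 FPKM in fl/fl 1, while no other heart exceeded 1.88 FPKM.

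The proportions of these genes were compared with Cfd as the reference. Car3 stood at 73.8% of the Cfd level in fl/fl 1 and between 60.5% and 92.5% in the other hearts. Cidec stood at 11.9% of Cfd in fl/fl 1 against 4.84% to 13.9%, and Plin1 at 6.23% against 4.37% to 9.58%. For these 3 genes fl/fl 1 lay inside the range of the other hearts. Adipoq was at 19.1% of Cfd in fl/fl 1, at 15.5 to 28.9% in fl/fl 2, fl/fl 3, cKO 1 and cKO 2, and at 1.78% in cKO 3. Ucp1 was at 6.13% of Cfd in fl/fl 1 and 1.81% in fl/fl 2. Retn was at 6.47% in fl/fl 1 and at 10.9 to 20.2% in the hearts other than cKO 1, where it was listed at 0.01 FPKM. Among the 5 hearts other than fl/fl 1, cKO 3 had the lowest value for 5 of the 7 genes, and fl/fl 2 the highest for 5.

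Of 27 further white or general adipocyte genes, 5 passed the 3-fold limit in fl/fl 1. They were Pck1, an enzyme of glyceroneogenesis (29.3 FPKM, with at most 0.502 FPKM in any other heart), Cebpa, a transcription factor of fat cell differentiation (14.8 and at most 4.75 FPKM), the adrenergic receptor Adrb3 (3.63 and at most 0.108 FPKM), the amino acid transporter Slc7a10 (3.18 and at most 0.109 FPKM) and leptin, Lep (2.31 and at most 0.217 FPKM). Fabp4, a fatty acid binding protein of fat cells and capillary endothelium, was 1800.5, 1807 and 1065 FPKM in the fl/fl hearts against 1411, 1501 and 1794 FPKM in the cKO hearts. The lipoprotein lipase gene Lpl was 1438, 1916 and 1545 FPKM in the fl/fl hearts against 1279.5, 1596 and 1265 FPKM in the cKO hearts. These abundant genes were not set apart in fl/fl 1. The list summed to 5150.4 FPKM in fl/fl 1, between fl/fl 2 (5706 FPKM) and fl/fl 3 (4256 FPKM). Of 24 genes of fatty acid and triglyceride synthesis 2 passed: the desaturase Scd1 (68 FPKM, with at most 7.61 FPKM in any other heart) and fatty acid synthase, Fasn (20.6 and at most 4.93 FPKM).

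**Figure D2:**
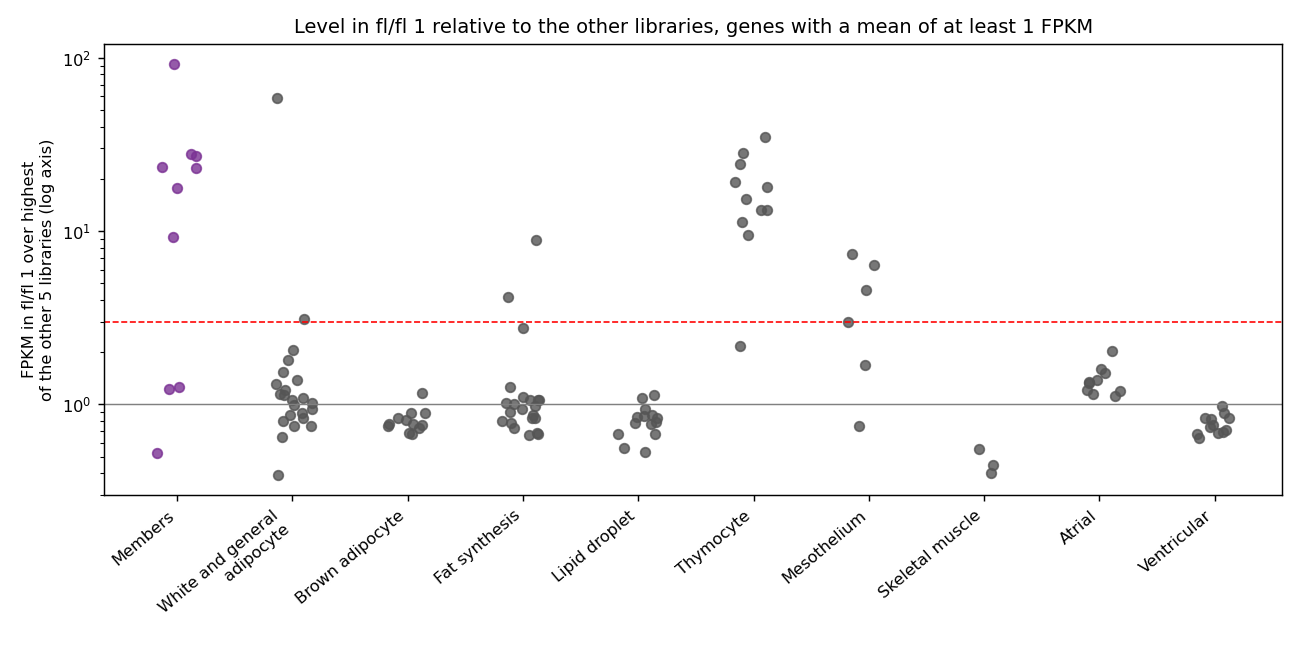
Ratio of the FPKM in fl/fl 1 to that of the highest of the other 5 libraries, on a log axis, for the 10 genes (purple) and for listed genes with a mean of at least 1 FPKM (grey); each point is a gene, the dashed line is a ratio of 3 and the solid line a ratio of 1. Of the 10 genes 7 lie above the dashed line, and the thymocyte markers shown lie mostly above it too. Some of the points, such as Rag1 (mean 2.53 FPKM, and 0.115 FPKM without fl/fl 1), reached a mean of 1 FPKM only through fl/fl 1. The filter therefore favours high ratios among them.

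Genotypes were compared on log2(FPKM + 1) with limma over 12103 genes, of which 0.587% were called at an adjusted p under 0.05 (0.364% higher and 0.223% lower in cKO). Of the 10 genes 1 was called, Slc36a2, and 4 had an unadjusted p under 0.05 (Slc36a2, Thrsp, Cidea and Retn), a limit that 12.7% of all 12103 genes passed. The sign was negative, lower in cKO, for 9 and positive for Thrsp. The genotypes did not overlap for 5 of the 10 (Plin1, Retn, Cidea, Slc36a2 and Thrsp), against 20.4% of all genes tested. Of all genes 10.3% had each cKO heart below and 10.1% each cKO heart above. The median log2 change was -1.63 over the 10 and -0.00196 over all genes tested. As the genes were named with these values known, nothing is read from these counts.

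For the 7 genes high in fl/fl 1 the size of the genotype difference rested on that library. This follows from the 3-fold limit that defined the 7 and is no separate result. The log2 change of Cfd was -2.30 (SE 1.16, limma adjusted p = 0.447) with 6 libraries and -0.69 without fl/fl 1 (adjusted p = 0.306). That of Adipoq went from -2.19 (SE 1.06, adjusted p = 0.428) to -0.78 (adjusted p = 0.465), and that of Car3 from -2.16 (SE 1.18, adjusted p = 0.476) to -0.54 (adjusted p = 0.51). Plin1, Cidec, Retn and Ucp1 had log2 changes of -1.49, -1.90, -1.76 and -1.50 with it and -0.33, -0.54, -0.78 and -0.12 without it. None of the 7 was called with or without fl/fl 1, which does not show equal levels. Without fl/fl 1, 0.281% of all genes were called.

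The authors' deposited table held a q-value under 0.05 for 8 of the 10 genes, against 3.77% of 12587 genes tested there. Adipoq, Cfd, Plin1, Cidec, Ucp1, Car3, Slc36a2 and Thrsp share a q-value of 0.00301 in the authors' deposited table. It is a tie at the authors' p-value of 5e-05, so it does not rank the genes. All of them but Slc36a2 and Thrsp were high in fl/fl 1, which enters the authors' fl/fl group level. Retn and Cidea had q-values of 0.519 and 0.125 in the authors' deposited table.

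Slc36a2, a proton-coupled transporter of small amino acids that is also used as a surface marker of brown and beige fat cells, was expressed in each heart and fell in cKO. It was 21.7, 15.8 and 17.3 FPKM in the fl/fl hearts against 9.11, 9.98 and 7.7 FPKM in the cKO hearts, so the genotypes did not overlap. The group levels were 18.3 ± 3.07 FPKM for fl/fl and 8.93 ± 1.15 FPKM for cKO (SD, n = 3 each), 2.04-fold higher in fl/fl. The log2 change was -0.95 (SE 0.14), with a limma adjusted p of 0.0367. Against fl/fl 2 and 3 alone the ratio was 1.85 and the log2 change -0.83 (adjusted p = 0.0954). The call was lost with each of the 6 libraries left out in turn (log2 change -1.04 to -0.83, adjusted p 0.0691 to 0.142), and within replicates 1 and 2 the log2 change was -0.89 (adjusted p = 0.205).

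Of 13 other transporters of this and related families 11 were tested, and 0 were called by limma. Of these, 1 (Slc38a4) had an unadjusted p under 0.05, beside 12.7% of all genes. The same gene was called in the authors' deposited table, beside 3.77% of genes tested there. Slc38a4, a transporter of neutral and cationic amino acids, was 4.02, 5.64 and 6.06 FPKM in the fl/fl hearts against 1.86, 2.75 and 3.55 FPKM in the cKO hearts (adjusted p = 0.21). Slc36a1, a close relative of Slc36a2, spanned 3.25 to 5.23 FPKM over the 6 libraries. The genes most like Slc36a2 over the 6 libraries were Bhlhb9 (r = 0.985), Cacna2d2 (0.984) and Anp32e (0.983). They were picked as the highest r among all named genes tested, over only 6 points. Genes that differ by genotype run alike, so no relation is read from them. Anp32e ranged from 43.2 to 45.2 FPKM in fl/fl hearts and from 31.4 to 35.9 FPKM in cKO hearts, and the calcium channel subunit gene Cacna2d2 from 1.73 to 3.3 and 0.559 to 0.752 FPKM.

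Thrsp, the thyroid hormone responsive protein linked to fatty acid synthesis in liver and fat, had the opposite sign. It was 94.2, 47.3 and 30.3 FPKM in the fl/fl hearts against 179.8, 145 and 146 FPKM in the cKO hearts. Each cKO heart lay above each fl/fl heart, and fl/fl 1 was the highest of its group. The group levels were 57.3 ± 33.1 FPKM for fl/fl and 157 ± 19.9 FPKM for cKO (SD, n = 3 each), a ratio of 2.74. The log2 change of 1.58 (SE 0.35) had a limma adjusted p of 0.131, which missed the threshold. Without fl/fl 1 the ratio was 4.04 and the log2 change 2.02 (SE 0.20), which passed (adjusted p = 0.0241). With another library left out it ran from 1.21 to 1.64 and did not pass.

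The 17 clock genes listed summed to 229 FPKM in fl/fl 3 and to 173 FPKM in cKO 3, lower than the 437 to 511 FPKM of the other hearts. Abundant genes weigh most in such a sum, and not every listed gene followed it. Arntl peaked in replicate 3 (fl/fl 3 8.84, cKO 3 13.7, every other heart at most 1.36 FPKM). So did Clock (12.3, 12.1, every other heart at most 6.28 FPKM) and Npas2 (2.22, 4.33, every other heart at most 1.67 FPKM). Thrsp was lowest of its group in fl/fl 3, whereas cKO 3 lay between cKO 2 and cKO 1. The clock output factor Dbp stood at 22.8 and 8.91 FPKM in the replicate 3 hearts (fl/fl, then cKO) and at 93.6 to 125 FPKM in the other hearts. With replicate 3 as a term the adjusted p of Thrsp was 0.0545, and within replicates 1 and 2 its log2 change was 1.26 (adjusted p = 0.363). The part of the clock in its level was not tested. The genes most like Thrsp over the 6 libraries were Acsf2 (r = 0.992), Man2b2 (0.992) and Lima1 (0.991). These too were picked as the highest r over only 6 points, and no relation is read from them. Acsf2, an acyl-CoA synthetase family member, ranged from 12 to 17 FPKM in fl/fl hearts and from 20.6 to 21.1 FPKM in cKO hearts.

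Of 24 fat synthesis genes 22 were tested, and 0 were called by limma. An unadjusted p under 0.05 was found for 2 (Gpam and Agpat2), beside 12.7% of all genes. The median log2 change of the 22 was 0.02, with 12 positive and 10 negative signs. Gpam, which starts glycerolipid synthesis in mitochondria, was 66.6, 54.9 and 49.8 FPKM in the fl/fl hearts against 98.7, 83.4 and 73.5 FPKM in the cKO hearts (log2 change 0.57, limma adjusted p = 0.179). Mid1ip1, a relative of Thrsp that activates acetyl-CoA carboxylase, was 97.9, 142 and 45.2 FPKM in the fl/fl hearts against 76.6, 80.4 and 40.2 FPKM in the cKO hearts, lowest in replicate 3 of both. In the authors' deposited table Acaca, Fasn, Scd1, Gpam, Mid1ip1 and Pnpla3 were called, beside 3.77% of genes tested there.

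Cidea, a CIDE protein of lipid droplets known as a marker of brown fat, was 40.2, 32.7 and 32.5 FPKM in the fl/fl hearts against 25.2, 27.8 and 23.1 FPKM in the cKO hearts. The fl/fl 1 level was 1.23 times that of the next library, and the genotypes did not overlap. The group levels were 35.1 ± 4.36 FPKM for fl/fl and 25.3 ± 2.38 FPKM for cKO (SD, n = 3 each). The log2 change of -0.45 (SE 0.12) had a limma adjusted p of 0.192, and without fl/fl 1 it was -0.35 (adjusted p = 0.237). The row overlaps B430212C06Rik (0.791 to 1.31 FPKM), and reads of the pair may be shared. The sources conflict on strand: library preparation is described as stranded, but with a kit that keeps no strand information, and whether the counting used it was not settled here. Cideb, the third family member, spanned 2.37 to 5.27 FPKM.

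**Figure D3:**
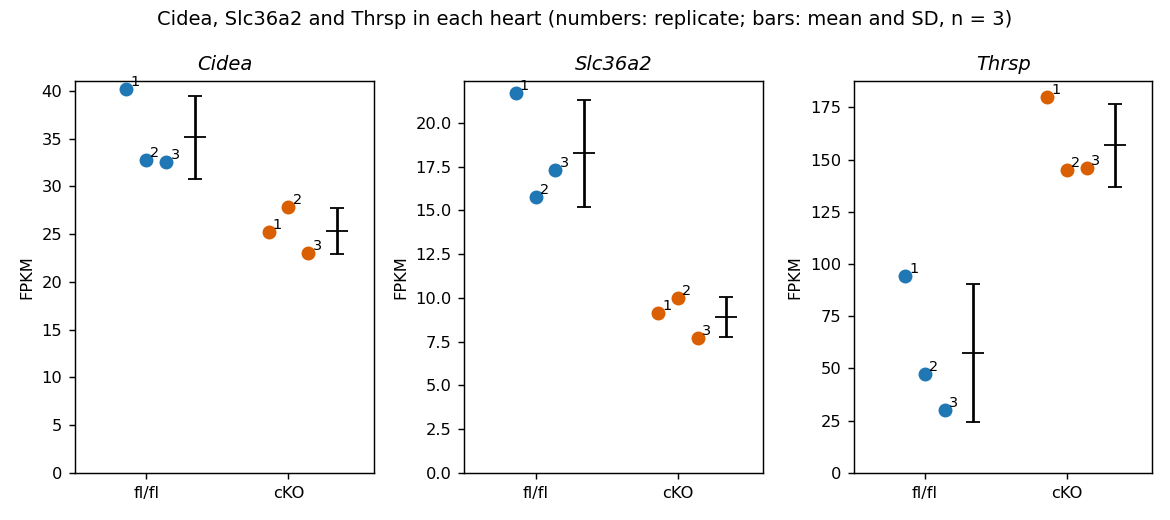
FPKM of Cidea, Slc36a2 and Thrsp in 3 fl/fl (blue) and 3 cKO (orange) hearts, with replicate numbers beside the points and the mean and SD of each group as a black bar. The groups do not overlap in any of the 3 panels, and Thrsp is the gene that lies higher in cKO.

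Car3 and Cfd, present in each heart, had cKO means 1.42-fold and 1.66-fold below fl/fl 2 and 3, with cKO 2 above fl/fl 3 in both genes. Markers of atria and genes of cardiomyocytes are given beside these comparisons. The 10 atrial markers summed to 3633 to 6422 FPKM in fl/fl hearts and 1235 to 4258 FPKM in cKO hearts, and of these limma called 2 (Bmp10 and Sbk2, both lower in cKO). Of the 10, 9 had an unadjusted p under 0.05, 8 were called in the authors' deposited table and 10 had a negative sign. Of 12 cardiomyocyte genes listed as ventricular limma called 2 (Ryr2 and Mb, both lower in cKO), and 9 had an unadjusted p under 0.05. Of these 12, 5 were called in the authors' deposited table and 9 had a negative sign. Over all genes tested, limma called 0.587%, 12.7% had an unadjusted p under 0.05, and the authors' deposited table called 3.77%. The list holds genes of cardiomyocytes in general, such as Ryr2, Mb and Myh6, so it does not separate ventricle from atrium. The part of these atrial and cardiomyocyte genes in the differences of Slc36a2, Thrsp and Cidea was not tested.

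**Figure D4:**
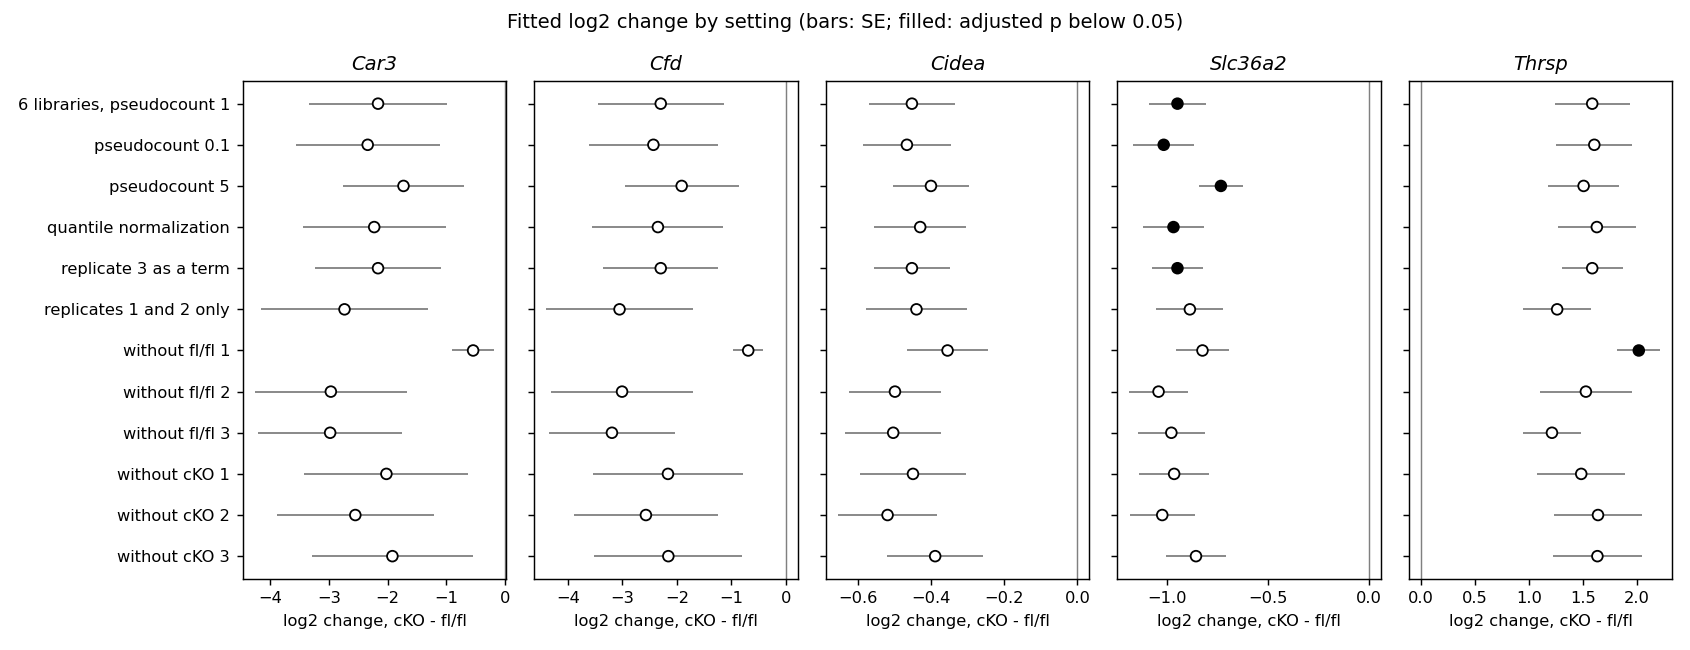
Fitted log2 change (cKO minus fl/fl, x axis) with its SE for Car3, Cfd, Cidea, Slc36a2 and Thrsp under 12 settings (rows); filled points have an adjusted p below 0.05. Car3 and Cfd stand at -0.54 and -0.69 without fl/fl 1 and Thrsp at 2.02, and each point keeps its sign.

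Receptors for the secreted factors were expressed in each heart. The adiponectin receptors Adipor1 and Adipor2 spanned 81.1 to 98.3 and 31.4 to 45.1 FPKM over the 6 libraries, and Cdh13 (T-cadherin, which binds adiponectin) 65.2 to 82.5 FPKM. Of 12 receptors and relatives 10 were tested; 0 were called by limma and 2 (C1qtnf9 and Retnla) had an unadjusted p under 0.05. Retnla, a resistin-like factor, was 25, 37 and 11.7 FPKM in the fl/fl hearts against 8.69, 13 and 10.3 FPKM in the cKO hearts (adjusted p = 0.304), and it was called in the authors' deposited table. For the alternative complement pathway, in which Cfd acts, 0 of 9 tested genes were called by limma or in the authors' deposited table, and 1 (Masp1) had an unadjusted p under 0.05. C3 was 54.4, 26.1 and 18 FPKM in the fl/fl hearts against 33.3, 23.4 and 15 FPKM in the cKO hearts, and Cfb, which Cfd cleaves, stood at 3.56 FPKM in fl/fl 1, while no other heart exceeded 1.18 FPKM. Among 23 tested white adipocyte genes, 0 were called by limma, 3 had an unadjusted p under 0.05 (Agpat2, Acsl1 and Rbp4), and 12.7% of all genes tested passed that limit. Of the 27 genes listed, 4 were called in the authors' deposited table: Cebpa and Pck1, and Adrb3 and Pnpla3, which were too low for the limma test. The median log2 change of the 23 was -0.23, and 19 of 23 signs were negative, with fl/fl 1 included. Some of the 19, such as Pparg and Adig, had a cKO mean above that of fl/fl 2 and 3 alone. Others, such as Lpl and Retsat, stayed below it. Of the brown adipocyte, lipid droplet, uncoupling protein and carbonic anhydrase genes, limma called 0; at an unadjusted p under 0.05 stood Ebf2 of the first list, Plin5 and Fitm2 of the second, Ucp3 and Slc25a30 of the third, and Car2 and Car11 of the fourth. The authors' deposited table called Plin5 of the second list, Ucp3 of the third and 0 of the first and the fourth.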

How the data were processed

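Per the labels' protocols, RNA was taken from frozen hearts with Trizol and made into TruSeq libraries. Per the submitters' processing notes, TopHat (version 1.0.0), Cufflinks and Cuffdiff were used with build mm10. The authors deposited FPKM per gene and library, with a p-value and q-value per gene for the genotype comparison. The lowest FPKM is 0.01, held by 6563 rows in every library. Positions in the files overlapped GRCm38 for 3 of the 10 genes, so none are printed. Names of 27 rows were dates, and 1 row with a failed value was left out.

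Here log2(FPKM + 1) was fitted with limma 3.58.1 in R 4.3.3 (intensity trend, two-sided, Benjamini-Hochberg over 12103 genes with a mean of at least 1 FPKM, threshold 0.05); folds on this scale understate low genes. The fit was tested on simulated data. FPKM are no counts, so no count test or interval was used, and precision rests on 3 animals per genotype. The 10 genes and the lists were chosen with earlier results of these data known. Further genes named are those called, defining or most abundant in a list, the 3 most like Slc36a2, Thrsp and Car3, and the 8 with the largest ratio of fl/fl 1 to other libraries; the remaining ones, among them those past the 3-fold limit or an unadjusted p under 0.05, were named after their values were seen. Alternatives covered pseudocount, filter, scaling, variance model, sample weights, replicate number and each library left out.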

Additional observations from a re-analysis of the deposited data

How the results depend on the processing

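The 10 genes kept the sign of their log2 change in each setting run. Of the 10, limma called 1 with 6 libraries, 0 with no filter (3 at an unadjusted p under 0.05, beside 10.4% of all genes), 0 without the intensity trend (3 at an unadjusted p under 0.05, beside 12% of all genes), 0 within replicates 1 and 2 (5 at an unadjusted p under 0.05, beside 9.28% of all genes), and 0 to 1 with a library left out; the cause was not tested. Genes called in all numbered 71 with 6 libraries, 14 with no filter, 38 without the trend, 123 with replicate 3 as a term, 13 within replicates 1 and 2, and 13 to 34 with a library left out. With the filter taken over the 5 libraries without fl/fl 1, an alternative chosen after seeing the data, it was 50. Slc36a2 had an adjusted p of 0.132 with no filter and 0.0574 without the trend. Whether replicate numbers pair the hearts was not settled. Deviations of same-numbered hearts correlated at 0.089, 0.271 and 0.429, and those of other pairs at -0.333 to 0.152. Each fl/fl heart correlated best with the cKO heart of its number, whereas cKO 1 correlated best with fl/fl 2 (0.152). With the replicate number as a block 213 genes and 2 of the 10 were called, Slc36a2 and Thrsp (adjusted p = 0.0145 and 0.0148). Of the 10, 3 reached 5 FPKM in every library, against 5 at 1 FPKM. The count of genes high in fl/fl 1 was 7 under each of the 6 other thresholds or references. Depth is unknown, so the error of values under 1 FPKM cannot be given.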

Other observations

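The 8 genes outside the 10 with the largest ratio of fl/fl 1 to the other libraries were Snord22, Snora16a, Mir8091, Ubd, Reg3g, Krt17, Krt5 and Prss16. The first 7 were listed at 0.01 FPKM in the other 5 libraries. The keratin genes Krt5 and Krt17, known from stratified and thymic epithelium, stood at 6.27 and 7.05 FPKM in fl/fl 1, and Prss16, a thymus-specific serine protease, at 12.9 FPKM with at most 0.0429 FPKM in any other heart. Snord22, Snora16a and Mir8091 encode small RNAs, for which FPKM is unreliable, and stood at 830.3, 68.1 and 46.7 FPKM in fl/fl 1.

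Lung epithelium markers had their highest sum in another fl/fl heart, mostly through Scgb1a1. They summed to 18.8 FPKM in fl/fl 2, followed by fl/fl 1 at 5.23 FPKM, with at most 0.709 FPKM in the other 4 libraries, and Sftpc, a surfactant gene, stood at 3.39 FPKM in fl/fl 2. Neutrophil and erythroid markers summed to 1246 to 1660.4 FPKM in fl/fl hearts and 1259 to 2035 FPKM in cKO hearts, lowest in fl/fl 1. Most of the sum came from the globins Hbb-b1 and Hba-a1 (635 and 585 FPKM in fl/fl 1). The neutrophil genes did not follow it as a set. S100a8 and Lcn2 were highest in fl/fl 1 (4.82 and 5.44 FPKM), S100a9 was lowest there (3.09 FPKM), and Ngp and Camp were listed at 0.01 FPKM there. Vascular smooth muscle markers summed to 236 to 273 FPKM in fl/fl hearts and 618 to 732 FPKM in cKO hearts. Of the 6, limma called 1, Acta2, higher in cKO, beside 0.587% of all genes called. Smtn also had a positive sign, and the other 4 had a negative sign. Myh11, the smooth muscle myosin, spanned 12.8 to 21.4 FPKM in fl/fl hearts and 11.1 to 16.6 FPKM in cKO hearts.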
